A study of Gallus gallus with 6 samples.

Results

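Integrins and laminins are the receptors and ligands by which an epithelium such as the epiblast holds on to its basement membrane. The set described here holds the genes whose array annotation names an integrin α chain, an integrin β chain or a laminin chain, together with the nidogens NID1 and NID2, perlecan (HSPG2), agrin (AGRN) and dystroglycan (DAG1). On this array 32 of the 13008 named genes met that rule, 16 of them integrin chains, 11 laminin chains and 5 linker or dystroglycan genes, and they were read by 74 probe sets. The samples were epiblast of the chick area opaca, which lies outside the embryo proper. In the induced group, lateral head mesoderm of HH6 embryos had been grafted into the area opaca of HH4- hosts and removed after 12 hours, before the epiblast was taken. The control group was the area opaca of the opposite side of the hosts, which received no graft. Each group had 3 arrays, and the comparison asks which transcripts differ when head mesoderm induces sensory placode precursors. The labels do not say whether a sample pools several embryos.

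An integrin is a pair of 1 α and 1 β chain, and the α chain largely sets what the receptor binds. A laminin is a cross-shaped trimer of an α, a β and a γ chain that polymerizes into the sheet on which epithelial cells sit. Nidogens and perlecan tie this sheet to the collagen IV network, agrin binds laminin, and dystroglycan is a laminin receptor outside the integrin family. In vertebrate embryos the basement membrane lies under the epiblast, is lost where cells ingress through the primitive streak, and is present beneath ectodermal placodes.

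Signals are given as log2(signal + 16) after the 6 arrays were brought to a common distribution, with the control arrays 1, 2 and 3 before the induced arrays 1, 2 and 3. Differences (induced minus control) are on the same log2 scale, and since 16 units were added to every signal they come out too small for weak genes. Median signals before this step were 17.7 and 18.35 units on both arrays of repeat 1 and 7.5 to 9.6 on the other 4, and arrays correlated at 0.973 to 0.983 within groups and at 0.964 to 0.984 between them. The highest of these values was that of control 1 with induced 1, the brighter arrays. The tissue carried epithelial markers in both groups: E-cadherin (CDH1) had means of 10.84 and 10.85 and EPCAM of 11.44 and 11.50. Over the whole list of epiblast and ectoderm markers 12 of 15 genes were measured and 0 passed; 10 lay above the controls, among them OTX2 at 2.08, DLX6 at 1.14 and GATA3 at 0.89, and GRHL3 lay below at -0.68. The groups did not overlap in 4 of the 12 (33.3%, against 16.6% of all genes). Summed over that list, control arrays gave 11651 to 13035 units, and induced arrays gave 12550 to 13214. All summed marker signals given here are of normalized values turned back to units, less the added 16. Markers of blood and endothelium were lower in the induced samples, with 14 of 16 measured genes below the controls and a summed signal of 762 to 2028 units against 3486 to 3965. Of these 3 passed (TAL1, KDR and LMO2), against 0.376% of all genes tested, and 0 of the 16 were under 16 units on every array. Those of yolk sac endoderm were lower as well, in 14 of 16 genes, with a summed signal of 2533 to 3156 against 4133 to 7443 units. Among them 1 passed (FABP2). A smaller share of blood, endothelial and yolk sac cells and less RNA per cell cannot be told apart in these samples. Of the mesoderm markers 9 of 16 were measured, with 5 above the controls and 4 below. Among these 1 passed (NKX2-5, at 1.90, limma adjusted p = 0.0115), and FOXC2 and CYP26C1 had 1.69 and 1.33. The summed signal of the mesoderm markers overlapped between the groups, at 831 to 1866 units in induced arrays and 265 to 1423 in controls.

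No integrin, laminin or linker gene differed between induced and control epiblast at an adjusted p under 0.05 (limma, two-sided, Benjamini-Hochberg over 10118 genes). Across all genes tested, 38 did, which is 0.376%, so that a count of 0 among 29 members lies near the background. The members' lowest adjusted p was 0.439, and 0 of the 29 had an unadjusted p under 0.05, against 11.6% of all genes. The filter on weak signals kept these 29 genes and 52 of their 74 probe sets. ITGB6, LAMA3 and LAMC3 were left out, with at most 7.2, 14.1 and 8.5 units on any array. Of the 29 genes 14 lay above the controls and 15 below (53.2% of all genes lay above), with a median log2 fold change of -0.0034, against 0.016 over all genes tested. The median size of the change, whatever its sign, was 0.15 for the members and 0.16 for all genes. Induced and control arrays did not overlap in 2 of the 29 genes (6.9%), ITGA2 and LAMA4, against 16.6% of all genes.

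How large a change these arrays leave possible can be read from the 95% intervals of the differences. In 27 of the 29 genes the interval lay within a 2-fold change in either direction, and in 14 within a 1.5-fold change. ITGA4 and ITGB3 were the exceptions at 2-fold. The 16 genes with at least 16 units on all 6 arrays give the firmer values, and among them the interval lay within 2-fold in 14 and within 1.5-fold in 6. Those 6 were ITGB1, ITGB5, LAMA5, LAMB1, LAMC1 and AGRN. Each gene was read here by its brightest probe set only. The other kept probe set of LAMC1 had an interval of 0.532 to 1.15 as a fold, past 1.5-fold. A further DAG1 probe set, with at least 16 units on all 6 arrays, had 0.496 to 1.12, past 2-fold. These limits depend on the constant added to the signal. With 1 unit in place of 16, 18 of 28 measured members lay within 2-fold and 6 within 1.5-fold, and of the 16 brighter genes 11 and 6 did. With 64 units, 28 and 25 of 29 did, and 15 and 12 of the brighter ones. The members that went past 2-fold with 1 unit were ITGA4, ITGA8, ITGA9, ITGA11, ITGB3, LAMA1, LAMB2, LAMB3, NID2 and DAG1. A p above the threshold does not show that a gene was equal in both groups, and the interval gives the range that remains.

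**Figure D1:**
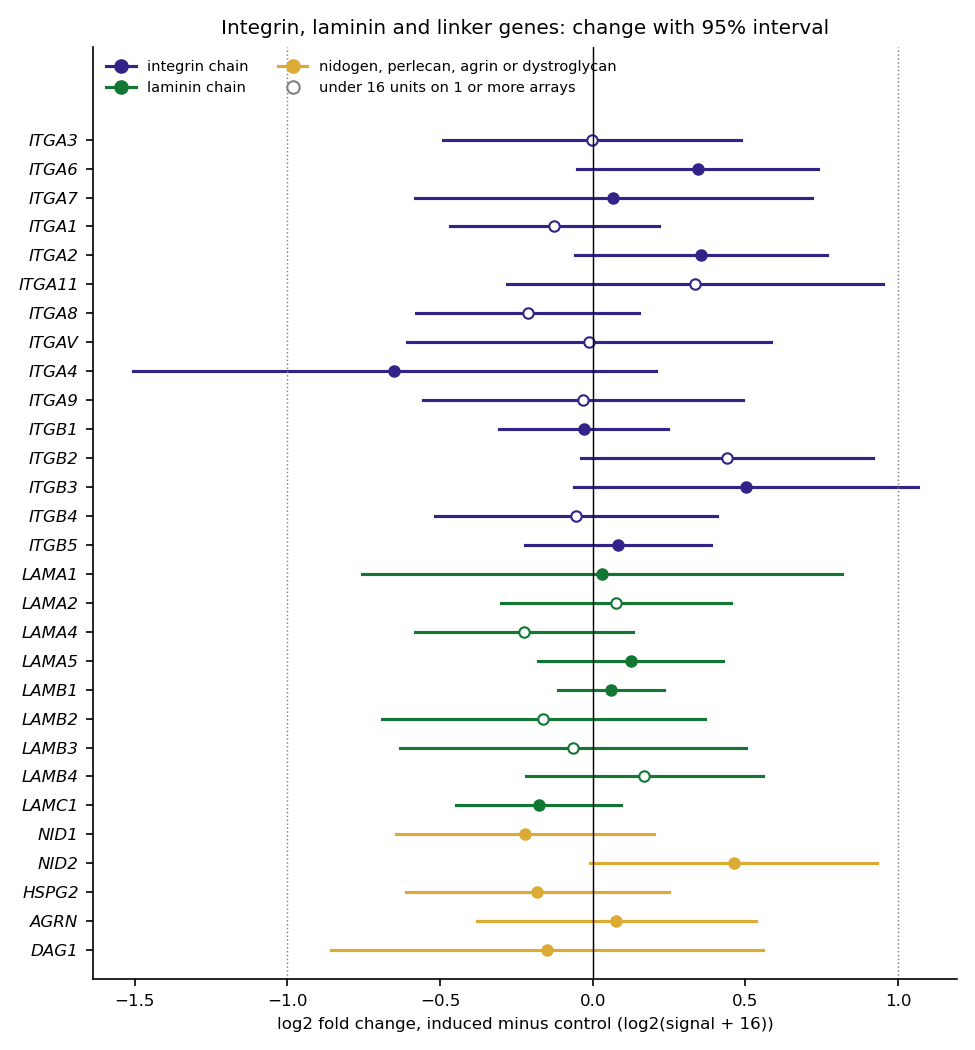
Log2 fold change of the 29 measured genes (x axis, induced minus control, on the log2(signal + 16) scale) with its 95% interval (bars), ordered by role; open points had under 16 units on 1 or more arrays, and dotted lines mark a 2-fold change. All 29 intervals include 0, and only those of ITGA4 and ITGB3 reach past a dotted line.

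Among the laminin chains, LAMB1 gave the narrowest interval of all 29 genes. The β1 chain that it encodes is part of laminin-111, the main laminin of early embryos. Its values were 10.80, 10.83 and 10.75 in the controls and 10.89, 10.87 and 10.80 in the induced samples. Induced array 3 fell within the range of the controls, and the spread within a group (SD 0.038 and 0.047, n = 3 each) was about as small as the difference. They differed by 0.059 (SE 0.078, limma adjusted p = 0.857), with an interval of 0.923 to 1.17 as a fold. A second, weak probe set of the gene gave 0.11.

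LAMC1 encodes the γ1 chain found in most laminins. It stood at 10.65, 10.82 and 10.39 in the controls and at 10.53, 10.31 and 10.48 in the induced samples. The induced arrays lay inside or just below the range of the controls. The difference was -0.18 (SE 0.122, limma adjusted p = 0.651). Its other kept probe set gave -0.35 and varied more, from 9.55 to 10.48 in the controls and from 9.40 to 10.19 in the induced samples, with the arrays of repeat 1 lowest in each group.

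LAMA5 encodes the α5 chain, which replaces α1 in many epithelial basement membranes as mouse development proceeds. Its values were 9.25, 8.92 and 9.06 in the controls and 9.20, 9.24 and 9.16 in the induced samples. All 3 induced arrays lay within the range of the controls, at a difference of 0.12 (SE 0.136, limma adjusted p = 0.814) and an interval of 0.883 to 1.35 as a fold.

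LAMA1, the α1 chain of laminin-111, was the least settled laminin. Its brightest probe set read 5.27, 6.76 and 5.89 in the controls and 5.92, 5.66 and 6.43 in the induced samples. The controls alone spanned more than the induced arrays did. With an SE of 0.353 the difference was 0.030 (limma adjusted p = 0.988), and its 4 other probe sets gave -0.0099, -0.18, -0.40 and -0.42. The sign thus depended on the probe set: the brightest one can match more than one transcript, and without such probe sets LAMA1 was represented at -0.40 (adjusted p = 0.556).

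LAMA4 encodes the α4 chain, best known from the basement membrane of blood vessels. Both of its probe sets were lower in every induced array than in every control. The brighter one read 5.38, 5.47 and 5.39 in the controls and 5.15, 5.23 and 5.18 in the induced samples. The difference was -0.22, with an SE of 0.161 (limma adjusted p = 0.665). The other read 4.96, 5.01 and 5.01 against 4.74, 4.62 and 4.73, a difference of -0.30 (SE 0.149). The separation was thus complete but small, on signals of 13 to 41.3 units for the brighter probe set and 6.2 to 24.3 for the other. The blood and endothelium markers were lower on the same arrays, with mean deviations of -0.997, -1.45 and -0.679 from the control mean on induced arrays 1 to 3. Those of yolk sac endoderm were lower as well, at -0.726, -0.943 and -0.767. The part of either marker list in the LAMA4 difference was not tested.

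The other laminin chains were weak. LAMB2, the β2 chain of nerve and muscle synapses, differed by -0.16 (SE 0.238) and LAMB3, a β chain of skin laminin, by -0.064 (SE 0.254). LAMA2, the α2 chain of muscle laminin, had 0.076 (SE 0.17) in one kept probe set and -0.26 in the other, and its 3 probe sets below the filter had differences of -0.087 to 0.0020. LAMB4 had 0.17 (SE 0.175). A pair of further LAMB4 probe sets were higher in all induced arrays than in all controls, but both were under 16 units everywhere and below the filter. Their group means differed by 0.49 and 0.28, which are differences near the floor. Other probe sets below the filter, of LAMC1, ITGA11 and ITGB4, were lower in all induced arrays than in all controls. Their group means differed by -0.29, -0.024 and -0.11, also on signals under 16 units everywhere. How often groups did not overlap among all probe sets below the filter was not counted. Adjusted p of LAMA2, LAMB2, LAMB3 and LAMB4 ran from 0.80 to 0.96 by limma.

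**Figure D2:**
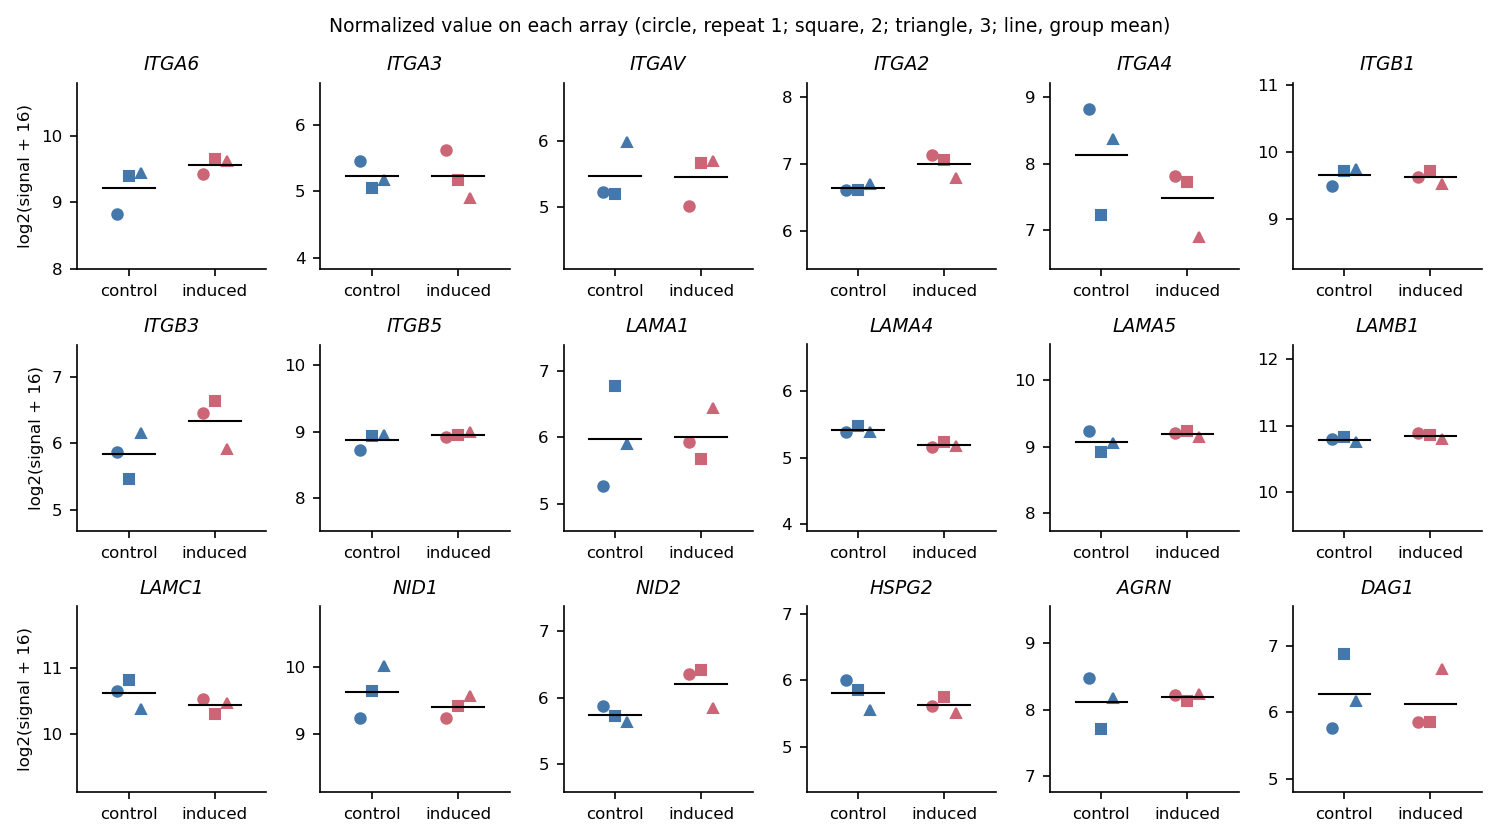
Log2(signal + 16) on each of the 6 arrays for 18 genes (y axis, every panel with the same span; blue, control; red, induced; circle, square and triangle, repeats 1, 2 and 3; line, group mean of 3). The groups are apart in ITGA2 and LAMA4, while LAMB1, ITGB1 and ITGB5 are nearly level and LAMA1, ITGA4 and DAG1 spread widely within a group.

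Of the integrin α chains that bind laminin, ITGA6 had the highest difference. The α6 chain pairs with β1 or β4 and is a major laminin receptor of epithelia. It read 8.82, 9.40 and 9.44 in the controls and 9.42, 9.65 and 9.62 in the induced samples. Only induced array 1 fell within the range of the controls, and control 1 was the lowest of the 6. Its log2 fold change was 0.34 (SE 0.177, limma adjusted p = 0.508), and its interval as a fold was 0.965 to 1.67. A weak second probe set gave 0.021. Repeat 1 alone gave 0.60 and repeats 2 and 3 gave 0.21, and the difference came to 0.14 without control 1.

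ITGA3, whose product also binds laminins of epithelial basement membranes, read 5.46, 5.05 and 5.18 against 5.62, 5.16 and 4.90. Its means were 5.23 in both groups, a difference of -0.0034 (SE 0.219, limma adjusted p = 0.999). These signals were weak, at 9.1 to 54.7 units, and reached 16 on 3 arrays only. ITGA7, the laminin receptor chain of muscle, had 0.067 (SE 0.292, adjusted p = 0.964) in one probe set and 0.053 in the other. In ITGA7 the arrays of repeat 1 gave -0.33 and the other 4 gave 0.27.

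Among the collagen-binding chains, ITGA2 was the only measured integrin whose groups did not overlap. It encodes α2, the collagen receptor chain of platelets and epithelia. The values were 6.61, 6.62 and 6.69 in the controls and 7.13, 7.06 and 6.79 in the induced samples. The controls were tight, and induced array 3 lay just above them. On average the induced arrays were higher by 0.35 (SE 0.185, limma adjusted p = 0.519), or 1.28-fold with an interval of 0.96 to 1.7. Repeat 1 alone gave 0.52, and the dimmer repeats gave 0.27. ITGA1, another collagen receptor chain, had -0.13 (SE 0.154) on signals that reached 16 units on 2 arrays. ITGA11 had 0.34 (SE 0.276) on signals that reached 16 units on 1 array only. Its value was unsettled: 1.47 with 1 unit added in place of 16, 0.097 with 64, -0.52 in repeat 1, 0.77 over the other repeats and 0.15 to 0.70 with 1 array left out.

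The chains that bind the RGD motif of fibronectin and vitronectin were represented by ITGAV and ITGA8. ITGAV, the αV chain, read 5.23, 5.20 and 5.98 in the controls and 5.01, 5.66 and 5.70 in the induced samples, so that the groups overlapped, with induced array 1 the lowest of the 6 and control 3 the highest. Its log2 fold change was -0.012 (SE 0.268, limma adjusted p = 0.994). ITGA8, known from kidney development, had -0.21 (SE 0.165, limma adjusted p = 0.697) on signals that reached 16 units on 3 arrays. No probe set carried the symbol of ITGA5, the α5 chain of the fibronectin receptor, or of ITGA2B, ITGA10, ITGAL, ITGAM, ITGAX, ITGAD, ITGAE, ITGB7 and ITGB8.

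ITGA4 had the largest difference in size of the 29 genes and also the widest interval. The α4 chain binds fibronectin and the vascular adhesion molecule VCAM-1 and is found on blood cells, mesoderm and neural crest. It read 8.82, 7.23 and 8.37 in the controls and 7.83, 7.73 and 6.91 in the induced samples. Control 2 lay below both of the first induced arrays, and the SD was 0.818 in the controls and 0.505 in the induced samples (n = 3 each). Its log2 fold change was -0.65 (SE 0.384, limma adjusted p = 0.582), or 0.637-fold with an interval of 0.352 to 1.15. It ran from -1.11 to -0.31 when 1 array was left out. Its other probe sets gave -0.099 and 0.039. Control 2 also had the lowest summed signal of mesoderm markers, 265 units against 1117 and 1423 in the other controls and 831 to 1866 in the induced samples, and their part in the ITGA4 values was not tested. Among the controls, control 2 was also lowest for the yolk sac endoderm markers, at 4133 units against 5016 and 7443. Induced samples had 2533 to 3156 units there. For the blood and endothelium markers control 2 was instead the highest of the controls, at 3965 units against 3521 and 3486. The yolk sac endoderm markers and the blood and endothelium markers were lower in the induced samples, and their part was not tested either. ITGA9, a related chain, was weak and had -0.032 (SE 0.235) in its brightest probe set and -0.22 (SE 0.183) in the other.

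The β1 chain, ITGB1, partners most of these α chains. It read 9.48, 9.72 and 9.75 in the controls and 9.62, 9.72 and 9.52 in the induced samples. Every induced value lay within the range of the controls. Its difference was -0.029 (SE 0.124, limma adjusted p = 0.963), with an interval of 0.809 to 1.19 as a fold, and the second probe set gave -0.10. ITGB5, a partner of αV in vitronectin receptors, was similar: 8.72, 8.93 and 8.95 in the controls and 8.92, 8.94 and 8.99 in the induced samples. Its log2 fold change was 0.082 (SE 0.137, limma adjusted p = 0.893).

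ITGB3, the other well-known partner of αV and the β chain of platelets, had the highest positive difference. It read 5.87, 5.47 and 6.15 in the controls and 6.45, 6.63 and 5.92 in the induced samples. Induced array 3 fell within the range of the controls while the other two lay above it. Its log2 fold change was 0.50 (SE 0.252, limma adjusted p = 0.492), or 1.42-fold with an interval of 0.959 to 2.09. It was 0.32 without control 2, 0.35 without induced array 2 and 0.71 without induced array 3. A weaker probe set gave -0.19, and the mean of both kept probe sets was 0.15. ITGB2, the β chain of white blood cells, had 0.44 (SE 0.215, adjusted p = 0.476) on signals of 17.7, 0.7 and 0.6 units in the controls and 26.4, 5.1 and 7.1 in the induced samples, close to the floor of the array. ITGB4, the partner of α6 in hemidesmosomes, had -0.055 (SE 0.207).

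Of the genes that link the laminin sheet to other matrix, NID2 came closest to the threshold. It encodes nidogen-2, which joins laminin γ1 to collagen IV. It read 5.88, 5.73 and 5.64 in the controls and 6.35, 6.42 and 5.85 in the induced samples. Induced arrays 1 and 2 lay above all controls and array 3 just below the highest of them. Its difference was 0.46 (SE 0.21, limma adjusted p = 0.439), or 1.38-fold with an interval of 0.995 to 1.9. Repeat 1 alone gave 0.48 and the other repeats 0.45. The single NID2 probe set can match more than one transcript.

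NID1, the related nidogen-1, pointed the other way. It read 9.23, 9.64 and 10.01 in the controls and 9.24, 9.41 and 9.57 in the induced samples, all within the range of the controls. The mean difference was -0.22 (SE 0.19, limma adjusted p = 0.74), and its 2 other kept probe sets gave -0.13 and -0.12. A further one below the filter had means that differed by 0.10. Repeat 1 gave 0.0068 and the dimmer arrays -0.34. The difference between NID1 and NID2 was not tested.

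HSPG2, which encodes the heparan sulfate proteoglycan perlecan, read 6.01, 5.85 and 5.56 against 5.62, 5.76 and 5.50. It had a difference of -0.18 (SE 0.193, limma adjusted p = 0.807), and its 2 other kept probe sets gave -0.0022 and -0.0033. AGRN, the proteoglycan agrin, read 8.47, 7.71 and 8.17 against 8.22, 8.12 and 8.24. The induced arrays lay closer together (SD 0.063) than the controls (SD 0.382), and the log2 fold change was 0.078 (SE 0.205, adjusted p = 0.94).

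DAG1 encodes both subunits of dystroglycan, which binds laminin through its sugar chains. It read 5.76, 6.88 and 6.17 in the controls and 5.85, 5.86 and 6.65 in the induced samples. The spread within each group exceeded the difference between them. All 4 probe sets lay below 0, at -0.15, -0.16, -0.15 and -0.42, and the gene's log2 fold change was -0.15 (SE 0.318, limma adjusted p = 0.92). Repeat 1 gave 0.091 and the dimmer arrays -0.27.

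More than 1 probe set was kept in 15 of the 29 genes, which gives a second reading on the same arrays. Probe sets of a gene shared the sign of their difference in 11 of these and not in the other 4, ITGA4, ITGB3, LAMA1 and LAMA2. Those of ITGA7, LAMB2, LAMB1, ITGB1, LAMA4 and NID1 spanned 0.014 to 0.099, while those of ITGA4 and ITGB3 were 0.69 apart. Weak signals limit this reading. The other kept probe sets of LAMB1, LAMB2 and NID1 had at most 19.7, 17.1 and 23.1 units, so their differences are compressed. The second LAMA4 probe set was weak too, at 6.2 to 24.3 units, and reached 16 on 2 arrays. The second one of ITGA7 had 9.6 to 61.7 units and reached 16 on 3. That of ITGB1 was bright, at 224 to 502 units. The probe sets of opposite sign in ITGA4 and ITGB3 each reached 16 units on 1 array only. In HSPG2 the sign was shared, but its other kept probe sets had only -0.0022 and -0.0033. How often probe sets share a sign was not counted over all genes. Over single probe sets, none of the 52 kept differed at an adjusted p under 0.05, against 0.0973% of all 22614, and the groups did not overlap in 3 of them, the probe set of ITGA2 and both of LAMA4, against 14.4% of all. Probe sets of one gene share the RNA and are not replicates.

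**Figure D3:**
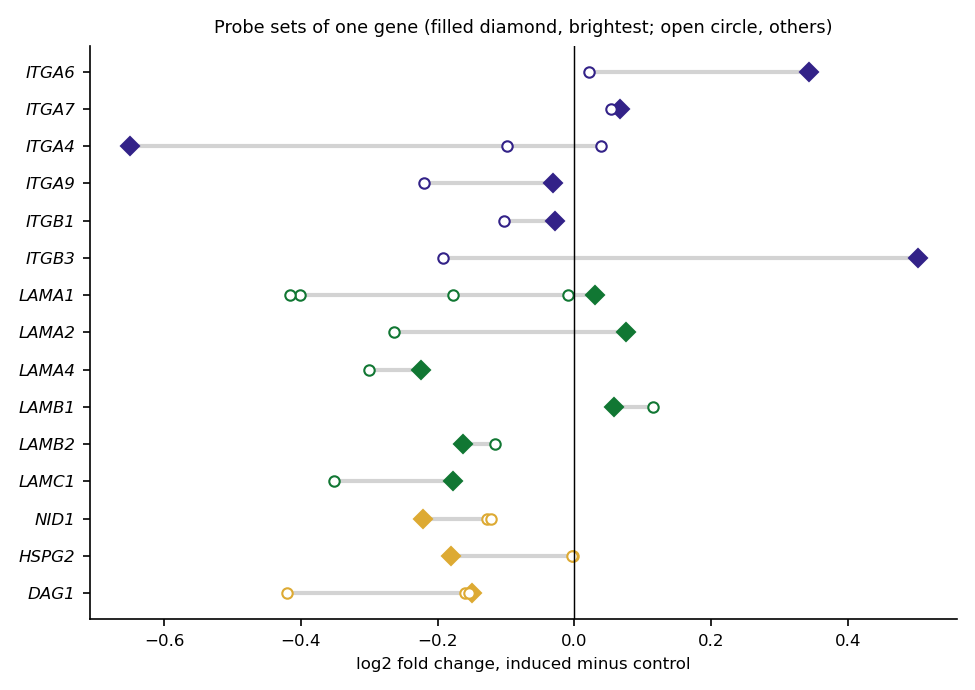
Log2 fold change (x axis, induced minus control) of every kept probe set in the 15 genes with more than 1; the filled diamond is the brightest probe set, which represents the gene, and open circles are the others. The probe sets of ITGA4 and ITGB3 lie far apart and on both sides of 0. Those of LAMA4 lie close together below 0, on weak signals.

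Both arrays of repeat 1 were brighter than the others, so the differences were also read within brightness. In the pair of repeat 1, which has no replicate, the members' median difference was 0.088, against 0.015 over all genes tested. Over repeats 2 and 3 the members' median was -0.069, against 0.020 over all genes. The sign of the difference was the same in every array set and every other processing that kept the gene for 11 of 29 members. They were ITGA6, ITGA2, ITGB2, ITGB3, LAMB4 and NID2 above the controls and ITGA1, ITGA4, LAMA4, LAMC1 and HSPG2 below. All settings use the same 6 arrays, and how often a sign held over all genes was not counted. Signals of ITGA1 and ITGB2 reached 16 units on 2 arrays and those of LAMB4 on 3. In ITGA4 and ITGB3 another kept probe set had the opposite sign. With 1 array left out LAMA4 varied least among these 11 members, from -0.25 to -0.20. Over all settings it ran from -0.37 to -0.10, a wider range than that of ITGA1, from -0.25 to -0.051.

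**Figure D4:**
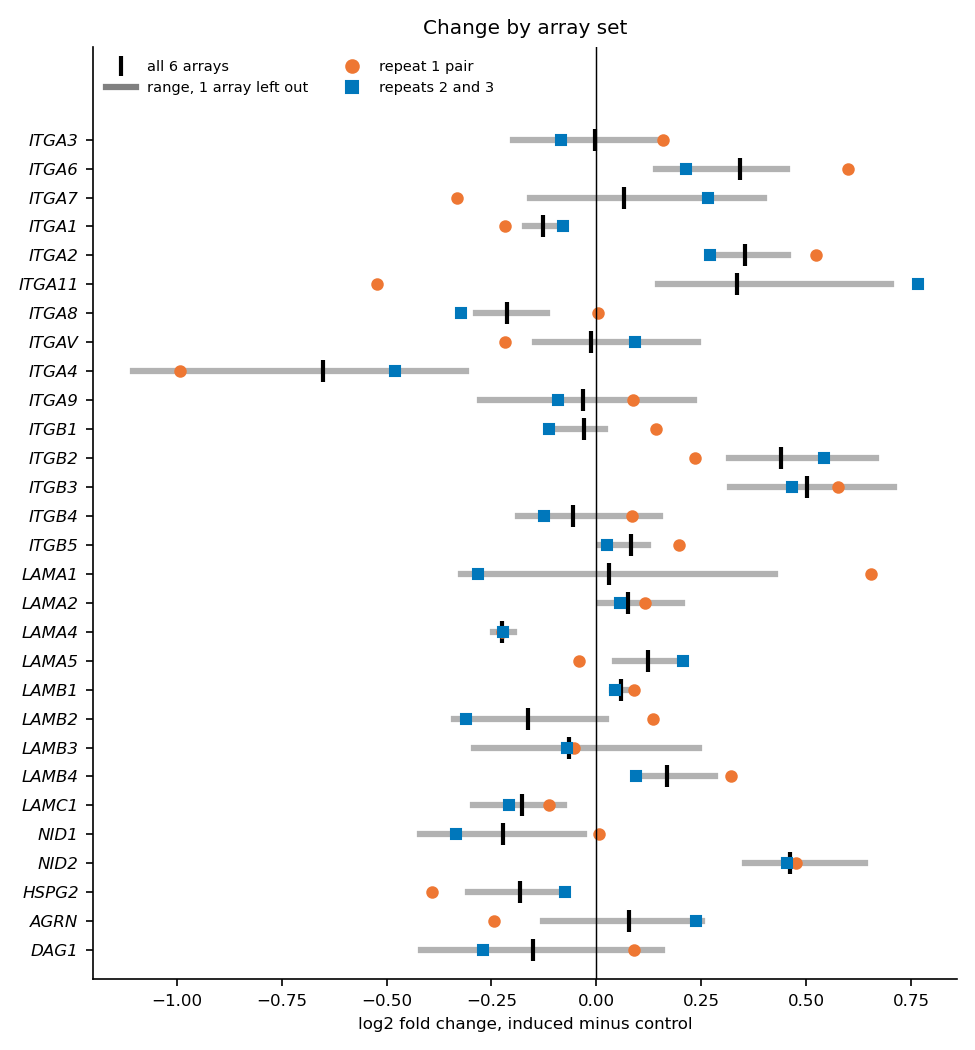
Log2 fold change (x axis, induced minus control) of the 29 genes over all 6 arrays (black bar), its range with 1 array left out (grey), in the pair of repeat 1 (orange circle) and over repeats 2 and 3 (blue square). ITGA11 and LAMA1 differ most between array sets, whereas LAMA4 and LAMB1 hardly move; NID2 is alike in the repeat 1 pair and the other repeats (0.48 and 0.45) but ranges from 0.35 to 0.64 with 1 array left out.

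Genes that work with these receptors and ligands were read from further lists, of which none had a called gene. With 0.376% of all genes called, a count of 0 in lists of this size lies near the background. Of the integrin adaptors and kinases, which connect integrins to actin, 22 of 27 listed genes were measured, 0 passed, and the median log2 fold change was -0.018. PTK2, the focal adhesion kinase, had 0.50 (SE 0.23, limma adjusted p = 0.439), and the scaffold NEDD9 had 0.40. SRC, a kinase that acts with PTK2, had 0.36 and the small GTPase RAP1A -0.37. Among the linkers to actin, the talins TLN2 and TLN1 had 0.35 and 0.21, the tensin TNS1 0.22 and ACTN1 -0.11. In SRC, TLN2 and TNS1 all induced arrays were above all controls, and in RAP1A and ACTN1 all were below them. The kindlin FERMT2 had -0.13, vinculin (VCL) -0.17, ILK -0.10 and zyxin (ZYX) -0.014. Over the list 10 genes lay above the controls and 12 below, and the groups did not overlap in 5 of 22 (22.7%, against 16.6% of all genes).

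The collagens of the basement membrane were all below the controls, 5 of 5 measured, with a median of -0.19 and 0 calls. Over all genes tested 53.2% lay above. COL4A1 and COL4A2 encode the chains of the main collagen IV. COL4A2 read 10.24, 10.02 and 9.72 in the controls and 9.37, 8.70 and 9.57 in the induced samples, and COL4A1 read 8.59, 8.82 and 8.65 against 8.09, 7.64 and 8.31. Both were lower in every induced array, with log2 fold changes of -0.78 (SE 0.22) and -0.67 (SE 0.195) and limma adjusted p of 0.197 and 0.207. The groups thus did not overlap in 2 of the 5 genes (40%, against 16.6% of all genes). COL18A1, COL4A5 and COL4A6 had -0.19, -0.14 and -0.16. Induced array 2 was the lowest for both COL4A1 and COL4A2. It was also the lowest for the summed blood and endothelium markers and for the summed yolk sac endoderm markers. The part of either marker list was not tested.

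Of the other matrix proteins 17 of 22 were measured, 0 passed, and 12 lay below the controls, with a median of -0.26. The groups did not overlap in 5 of the 17 (29.4%, against 16.6% of all genes), all 5 lower in the induced samples. The lowest adjusted p was that of fibulin-1 (FBLN1), at -0.61 (SE 0.132, limma adjusted p = 0.0979). Osteopontin (SPP1), an RGD ligand, had -1.61 (SE 0.481), versican (VCAN) 0.94 (SE 0.285) and nephronectin (NPNT), a ligand of α8, -0.40 (SE 0.165). Fibronectin (FN1), the main ligand of α5, was at 11.25 and 11.20. Of the partners and glycosylating enzymes of dystroglycan 10 of 17 were measured and 0 passed, with a median of -0.13; the lowest p belonged to the syntrophin SNTB1, at -0.69 (SE 0.249), followed by POMGNT1, at 0.29, SGCB, at -0.25, and DTNA, at 0.22. Of the matrix proteases and inhibitors 9 of 15 were measured and 0 passed, with a median of 0.011. The inhibitor TIMP3 had -0.78 (SE 0.198, adjusted p = 0.15), ADAM9 had 0.49, ADAMTS9 -0.42 and the plasminogen activator PLAU 0.35.

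**Figure D5:**
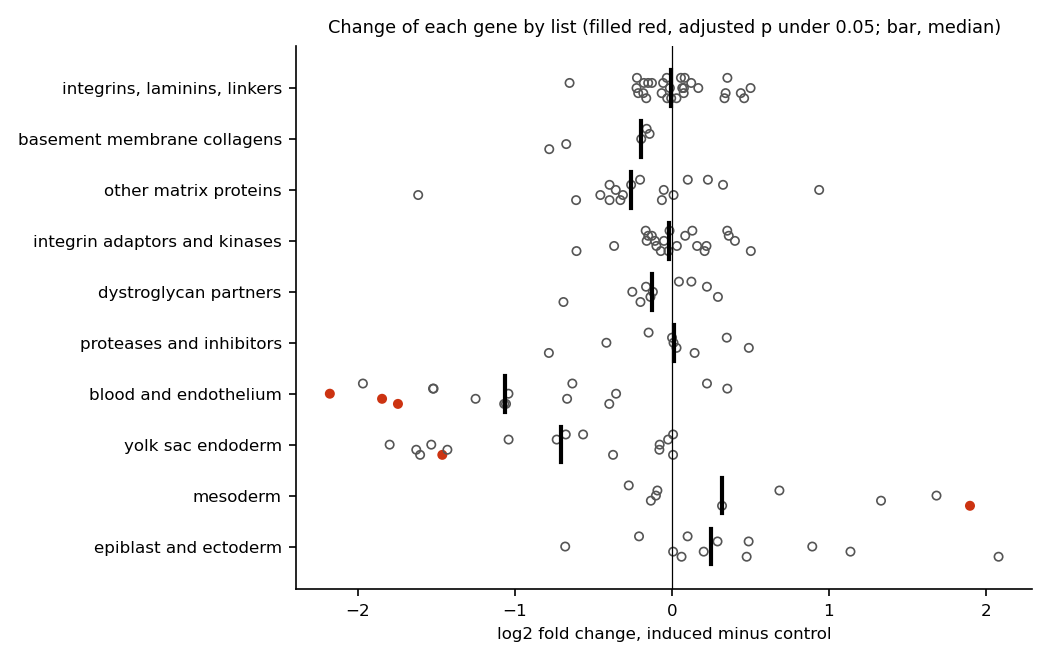
Log2 fold change (x axis, induced minus control) of each measured gene in the set, in 5 lists of related genes and in 4 lists of tissue markers; the bar is the list's median and filled red points have an adjusted p under 0.05. The integrins, laminins and linkers centre on 0, and the red points belong to the blood, yolk sac and mesoderm markers.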

How the data were processed

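RNA of 3 induced and 3 control samples was labelled with biotin for Affymetrix arrays, per the labels' protocols. The deposited table gives a linear intensity for each probe set on each array. MAS5 is named in the submitters' processing notes, without version or scaling. Columns of other samples numbered 0. Signals were turned into log2(signal + 16) and quantile normalized. Probe sets whose mean was under the 40th percentile (4.5) were dropped, which kept 22614 of 37690. Between 46.9% and 63.7% of an array's probe sets lay under 16 units, which limits weak genes. Quantile normalization removes a shift common to most genes. Groups were compared over the whole table with limma 3.58.1 in R 4.3.3 (trend in eBayes, group as the only term, two-sided, Benjamini-Hochberg, threshold 0.05), and the code was tested on simulated data. Intervals use limma's moderated error. An exact permutation test of 3 against 3 arrays cannot go below p = 0.1 and was not used. The samples are labelled as biological repeats, with nothing on separate embryos, so p-values reflect only the spread among these arrays.

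Names came from GEO's platform annotation (27166 probe sets with 1 symbol, 177 with several, 10347 with none). Members keep the annotation's symbol, and names of other genes were brought up to date by Entrez number through a RefSeq table. The kept probe set with the highest mean stood for a gene. Coordinates are left out because the files name no build. Every kept member is named. Values per array are given for members whose groups do not overlap and for a fixed list of main chains. ITGA4, ITGB2, ITGB3 and ITGB5 were added after their values were seen. Of each related list the members with the lowest p are named, up to 4. COL4A6, FERMT2, VCL, ILK, ZYX, TLN1, TLN2, TNS1, ACTN1, FN1, CDH1, EPCAM and GRHL3 were picked after their values were seen. Members and lists were chosen with earlier results of these data known. Alternatives covered scaling, added constants, filters, array sets, probe set rules, a repeat block and no variance trend.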

Additional observations from a re-analysis of the deposited data

How the results depend on the processing

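The count of called members was 0 for genes and 0 for probe sets in all 18 other settings with a test, the 6 runs without 1 array included. At an unadjusted limma p under 0.05 there were 0 to 3 member genes. Over all genes that share was 11.6% in the main fit and was not counted in the other settings. With the replicate block the count of called members was also 0, among 48 genes called over the whole table (0.474%) against 38 (0.376%). It was 0 as well among 359 called (3.53% of all genes tested) with the replicate block on values with no normalization between arrays. The repeat numbers were not taken to pair the samples, and the main fit treats the 6 arrays as independent. The labels do not say whether same-numbered samples came from the same hosts. Deviations from the group means of same-numbered control and induced arrays correlated at 0.553, -0.146 and 0.0695, and control 2 correlated best with induced 3, at 0.402. With 3 arrays in each group these correlations cannot settle whether hosts were shared. Without a filter all 32 members were tested and 0 passed. The members' median was -0.069 in the dimmer arrays and 0.088 in repeat 1, against 0.020 and 0.015 over all genes tested. With 1 array left out the members' median was -0.014 to 0.056. Of 544 single values of the 29 genes under other settings, 48 had the opposite sign, in 18 genes, none of them called; the cause was not tested. Without normalization, with or without the block, ITGB5 had -0.0076 and LAMB1 -0.049; with arrays centred on their median ITGA3 had 0.0032 and LAMB1 -0.029. With a pseudocount of 1 ITGA9 had 0.18 (ITGA11, LAMB3 and ITGA8 kept their sign at 1.47, -0.47 and -0.43), and with 64 ITGA3 had 0.0034 and LAMA1 -0.0047. In the dimmer arrays ITGAV had 0.092 and LAMA1 -0.28. In repeat 1 ITGA3 had 0.16, ITGA7 -0.33, ITGA11 -0.52, ITGA8 0.0028, ITGA9 0.088, ITGB1 0.14, ITGB4 0.085, LAMA5 -0.042, LAMB2 0.14, NID1 0.0068, AGRN -0.24 and DAG1 0.091. Averaging all kept probe sets of a gene, LAMA1 had -0.20 and LAMA2 -0.094, and without probe sets that match several transcripts LAMA1 had -0.40. With 1 array left out the ranges were -0.20 to 0.16 for ITGA3, -0.32 to 0.42 for LAMA1, -0.29 to 0.24 for LAMB3, -0.16 to 0.40 for ITGA7, -0.11 to 0.021 for ITGB1, -0.13 to 0.25 for AGRN, -0.42 to 0.16 for DAG1, -0.15 to 0.24 for ITGAV, -0.28 to 0.23 for ITGA9, -0.19 to 0.15 for ITGB4 and -0.34 to 0.023 for LAMB2. Signal over background limits the 13 members under 16 units on 1 or more arrays, whose differences are compressed.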
